A study of Mus musculus with 9 samples.

Results

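Tubular injury marker genes are genes whose transcripts are known to rise in damaged kidney tubule cells. The 10 genes described here, Havcr1, Lcn2, Spp1, Clu, Cp, Krt8, Krt18, Krt19, Krt20 and Sox9, were chosen by name and are 10 of the 55385 genes measured. Poly(A) RNA from the kidneys of 9 male C57BL/6 mice was sequenced, with 3 mice in each of 3 groups. The study's methods give an age of 8 to 10 weeks for the mice used to set up the model, and kidneys were taken at its end. The strain is as the labels give it, and the study's methods name the substrain C57BL/6J. Control mice (numbers 2, 4 and 5) are labelled as control, and the study's methods do not say whether they received a vehicle. HN mice (numbers 4, 8 and 12) had hyperuricemic nephropathy, which was induced over 4 weeks by feeding a mixture on alternate days, with 0.16 g/kg adenine in it beside 2.4 g/kg of potassium oxonate. PEC mice (numbers 1, 2 and 3) were fed in the same way and also received pectolinarigenin, a plant flavonoid, by mouth each day. The labels give no PEC dose, and 25 mg/kg is taken from a legend of the publication, whose methods name more than that dose. Control samples have titles that name the disease model, whereas their disease state is control. The extraction text mentions adipose although the labelled tissue is kidney. The kidney markers Kap, of the proximal tubule, and Umod, of the thick limb, had mean FPKM of 28775 and 878 in Control mice.

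Tubule cells that are damaged but survive lose part of their transport programme, flatten, and switch on genes for surface receptors, secreted proteins and an epithelial cytoskeleton otherwise typical of simple ducts. Some of these proteins reach the urine, where KIM-1 (from Havcr1) and NGAL (from Lcn2) are measured as signs of tubular damage. SOX9 is a transcription factor of tubule cells that enter a repair programme.

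Between 57714111 and 81069646 reads were counted on genes in each mouse, and PEC 3 had the smallest total. Levels are given as FPKM, in which reads are scaled by gene length and by the library's total. Differences are log2 fold changes of counts normalised with TMM, from edgeR's quasi-likelihood test. Genes were called where the fold change reached 1.5 and the adjusted p (Benjamini-Hochberg, over the 21392 genes tested) was 0.05 or less. All 10 genes passed the filter on low counts. The p-values set each group difference against the spread between mice of a group, estimated over all groups with information shared across genes.

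A few libraries stood apart in genes that bear on these markers. In PEC 3, the summed FPKM of 7 urothelium genes was 90.5, against 3.84 to 28.6 in the other 8 mice, and Psca was the most abundant of them. The summed FPKM of 6 adipocyte genes, of which Cfd was the most abundant, was 438 in PEC 3, 50.1 in HN 12 and 16.3 in Control 2, and 0.1 to 1.42 in the other 6 mice. In PEC relative to HN mice the median log2 fold change was 1.18 for the urothelium genes and 3.64 for the 5 adipocyte genes tested, with 0 genes called in either list, and without PEC 3 it was -0.857 and -5.66. Control 5 had the lowest FPKM of the Control mice for 8 of the 10 marker genes, all but Havcr1 and Sox9. The proximal tubule gene Kap had 37572 FPKM in Control 5, against 24762 and 23991 in the other two Control mice, whereas the other 17 proximal tubule genes summed to 5776, 5522 and 5723. Without PEC 3, 10 of the 10 marker genes were called higher relative to Control mice, beside 3685 of 22071 genes, and 2 lower relative to HN mice, beside 3191 of them. Without Control 5, 10 were called higher in each of the comparisons with Control mice, beside 3559 of 22288 genes in HN mice and 3725 in PEC mice.

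**Figure D1:**
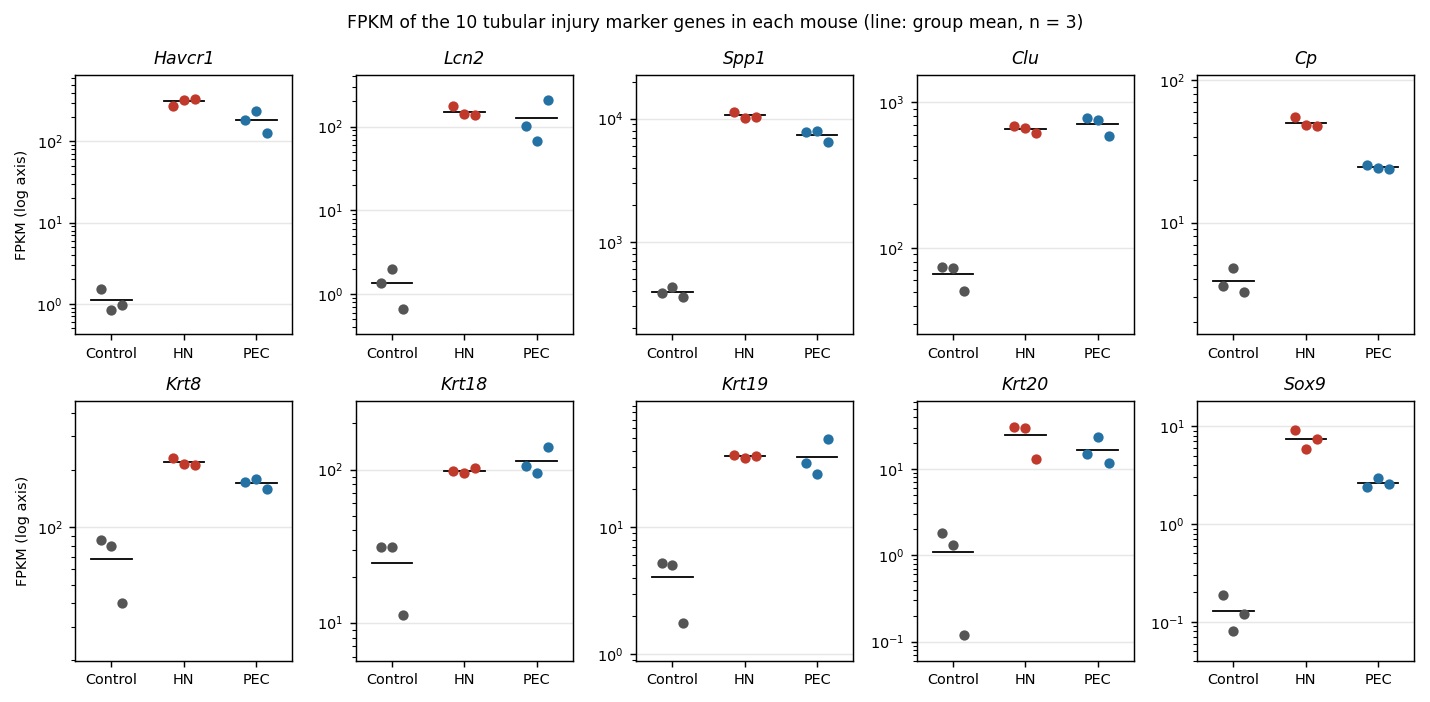
FPKM of each of the 10 genes in each mouse, on a log axis of its own for every gene, with points for mice and lines for group means (n = 3). The HN and PEC points lie above the Control points in every panel, and the HN and PEC points overlap in some panels and not in others.

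Relative to Control mice, all 10 genes were called higher in HN mice, where 17.7% of the genes tested were called higher and 14.7% lower. Their median log2 fold change was 3.58, against -0.000814 for all genes tested, and the values ran from 1.16 for Krt8 to 7.58 for Havcr1. Relative to HN mice, Sox9 and Cp were called lower in PEC mice and the other 8 genes were not called, where 15.3% of the genes tested were called lower and 13.4% higher. A share of 2 in 10 is near that background. The median of the 10 genes was -0.226 there, against -0.015 for all genes. Relative to Control mice, all 10 genes were called higher in PEC mice, where 18.9% of the genes tested were called higher and 17.4% lower, with a median of 3.38 against 0.0448 for all genes. The comparisons share Control, HN or PEC mice, so their values are given side by side. In these bulk samples, fewer cells of a type and less RNA per cell cannot be told apart.

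Together the 10 genes took 0.12% ± 0.0198 (SD, n = 3) of all counts in Control mice, 2.46% ± 0.123 (SD, n = 3) of those in HN mice and 1.83% ± 0.17 (SD, n = 3) of those in PEC mice. Most of this was Spp1, at 1.95% ± 0.11 (SD, n = 3) in HN mice. By mean FPKM, the order in HN mice was Spp1, Clu, Havcr1, Krt8, Lcn2, Krt18, Cp, Krt19, Krt20 and Sox9, and no neighbours in this order overlapped between mice. In Control mice the order by mean FPKM was Spp1, Krt8, Clu, Krt18, Krt19, Cp, Lcn2, Havcr1, Krt20 and Sox9. There, Krt8 overlapped with Clu, Krt19 with Cp, and each of Lcn2, Havcr1 and Krt20 with the next gene. In PEC mice the order by mean FPKM was Spp1, Clu, Havcr1, Krt8, Lcn2, Krt18, Krt19, Cp, Krt20 and Sox9, and each of Havcr1, Krt8 and Lcn2 overlapped with the next gene.

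Havcr1 (ENSMUSG00000040405, chr11:46735080-46779578, plus strand, GRCm38) encodes KIM-1, a surface receptor of injured proximal tubule cells that binds phosphatidylserine on dying cells. Control 2, 4 and 5 had FPKM of 1.54, 0.84 and 0.97, HN 4, 8 and 12 had 275, 325 and 334, and PEC 1, 2 and 3 had 182, 237 and 129. Control mice were all near 1, every HN and PEC mouse was far above them, and the PEC mice lay below the HN mice without overlap. Relative to Control mice, the log2 fold change in HN mice was 7.58 (SE 0.331, adjusted p = 1.39e-06, edgeR), the largest of the 10 genes and in place 103 among all genes tested. Relative to HN mice it was -0.55 in PEC mice (95% confidence interval -1.11 to 0.0086, adjusted p = 0.109, edgeR), which did not pass the test. With total counts in place of TMM it was -0.755 (adjusted p = 0.0366, edgeR), where the median of all genes was at -0.214. Without PEC 2 it was -0.78 (adjusted p = 0.0402, edgeR), and without PEC 3 it was -0.33 (adjusted p = 0.299, edgeR). PEC mice were 7.03 above Control mice on the log2 scale (adjusted p = 3.14e-06, edgeR).

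Lcn2 (ENSMUSG00000026822, chr2:32384633-32387797, minus strand) encodes lipocalin 2 (NGAL), a secreted protein that binds iron-carrying siderophores. The FPKM of Lcn2 was 1.37, 2.01 and 0.66 in Control mice, HN mice had 176, 140 and 136, and PEC mice had 101, 66.9 and 210, in the order of the mouse numbers. The PEC mice lay on both sides of the HN range, with PEC 2 the lowest and PEC 3 the highest of the HN and PEC mice. HN mice were 6.28 above Control mice on the log2 scale (SE 0.55, adjusted p = 2.69e-05, edgeR), and 5.97 without Control 5. The change from HN to PEC mice was -0.049 (95% confidence interval -1.03 to 0.93, adjusted p = 0.942, edgeR). It was -0.61 without PEC 3 and 0.25 without PEC 2, and the test was not passed in either case.

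Spp1 (ENSMUSG00000029304, chr5:104435118-104441050, plus strand) encodes osteopontin, a secreted phosphoprotein that binds integrins and CD44. Control mice had FPKM of 388, 428 and 355, HN mice had 11399, 10202 and 10397, and PEC mice had 7834, 7994 and 6468. The 3 groups did not overlap. By mean FPKM, Spp1 held place 83 among all genes in Control mice, place 2 in HN mice and place 12 in PEC mice. Its log2 fold change from Control to HN mice was 4.24 (SE 0.145, adjusted p = 7e-07, edgeR), and PEC mice were 3.94 above Control mice (adjusted p = 1.44e-06, edgeR). The change from HN to PEC mice was -0.31 (95% confidence interval -0.59 to -0.02, adjusted p = 0.0858, edgeR), and the gene was not called. Gm42793 overlaps Spp1 on the same strand, and its mean count was 0.114% of that of Spp1.

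Clu (ENSMUSG00000022037, chr14:65968483-65981547, plus strand) encodes clusterin, a secreted chaperone. The FPKM of Clu was 74.3, 72.9 and 50.7 in Control mice, HN mice had 690, 671 and 614, and PEC mice had 776, 751 and 590. On FPKM, PEC 1 and PEC 2 lay above all HN mice and PEC 3 below them, whereas on counts normalised with TMM PEC 3 (CPM of 2203) lay within the HN range (1929 to 2287). Clu was 2.79 higher in HN than in Control mice on the log2 scale (SE 0.167, adjusted p = 4.29e-06, edgeR), and 3.11 higher in PEC than in Control mice (adjusted p = 5.11e-06, edgeR). Between PEC and HN mice the difference was 0.32 (95% confidence interval -0.037 to 0.67, adjusted p = 0.142, edgeR).

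Cp (ENSMUSG00000003617, chr3:19957054-20009145, plus strand) encodes ceruloplasmin, a copper-carrying ferroxidase. Control mice had FPKM of 3.57, 4.76 and 3.27, HN mice had 54.9, 48.2 and 48.0, and PEC mice had 25.4, 24.3 and 23.9. The groups did not overlap, and the PEC mice lay between the Control and HN mice. From Control to HN mice Cp changed by 3.17 on the log2 scale (SE 0.14, adjusted p = 1.43e-06, edgeR), and from HN to PEC mice by -0.82 (95% confidence interval -1.12 to -0.53, adjusted p = 0.00121, edgeR), lower in 3 of 3 PEC mice. With the dependence of counts on gene length removed, the latter was -0.35 and not called (adjusted p = 0.0705, edgeR). With length and GC content removed together it was -0.12 (adjusted p = 0.548, edgeR), and over the 19 settings it ran from -1.03 to -0.12. Counts and FPKM imply a gene length of 10597 bases for Cp, at percentile 91 of the genes tested, and its transcript GC content was 41.7%. Across 18317 genes, which are not independent replicates, Spearman's rho between gene length and the log2 fold change from HN to PEC mice was -0.298. Hps3 overlaps Cp on the opposite strand, with a mean count that was 90.5% of that of Cp in Control mice, 5.96% in HN mice and 10.1% in PEC mice, and whether the libraries kept the strand is not stated. The mean count of Hps3 was 2793 in Control mice, 2442 in HN mice and 1760 in PEC mice, and that of Cp was 3086, 40957 and 17465.

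Krt8 (ENSMUSG00000049382, chr15:101996698-102004482, minus strand) and Krt18 (ENSMUSG00000023043, chr15:102028180-102032027, plus strand) encode keratins 8 and 18, which pair into the filaments of simple epithelia. For Krt8, Control mice had FPKM of 85.6, 79.4 and 39.8, HN mice had 230, 216 and 212, and PEC mice had 173, 180 and 159. For Krt18, Control mice had FPKM of 31.3, 31.4 and 11.3, HN mice had 98.2, 94.5 and 103, and PEC mice had 105, 94.8 and 140. Control 5 was the low Control mouse for both, and PEC 3 was the lowest PEC mouse for Krt8 and the highest for Krt18. On the log2 scale, HN mice were above Control mice by 1.16 for Krt8 (SE 0.228, adjusted p = 0.00292, edgeR) and by 1.48 for Krt18 (SE 0.325, adjusted p = 0.00549, edgeR). Without Control 5 these differences were 0.90 and 1.145, and both genes were called. Krt8 changed by -0.15 and Krt18 by 0.42 from HN to PEC mice, with adjusted p of 0.647 and 0.33 in edgeR. Over the 19 settings, Krt8 ran from -0.41 to -0.018 and Krt18 from 0.069 to 0.54, and neither was called. Both were lowest where gene length and GC content were removed. PEC mice were above Control mice by 1.02 for Krt8 (adjusted p = 0.00549, edgeR) and by 1.90 for Krt18 (adjusted p = 0.0014, edgeR). With gene length and GC content removed, that difference was 0.54 for Krt8, which was then not called (adjusted p = 0.0661, edgeR).

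The FPKM of Krt8 divided by that of Krt18 was 2.74, 2.53 and 3.53 for the Control mice, 2.345, 2.28 and 2.07 for the HN mice, and 1.65, 1.90 and 1.135 for the PEC mice. This ratio was highest in Control and lowest in PEC mice, with no overlap between groups. In each pair of groups the exact two-sided permutation test gave p = 0.1, the smallest that 3 against 3 mice allow. The ratio was chosen after the values of both genes had been seen. Krt8-ps, a copy of Krt8, matched 48.1% of its transcript at 98.6% identity and had a mean count of 80.0, against 24184 for Krt8. Gm5200, a copy of Krt18, matched 88.2% of its transcript at 90.45% identity and was listed at 0 in every mouse.

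Krt19 (ENSMUSG00000020911, chr11:100140810-100146120, minus strand) encodes keratin 19, a small keratin of ducts. The FPKM of Krt19 was 5.23, 5.07 and 1.78 in Control mice, HN mice had 37.05, 35.2 and 36.6, and PEC mice had 32.15, 26.1 and 49.4. The HN mice were nearly alike, and the PEC mice lay on both sides of them with PEC 3 on top. The log2 fold change from Control to HN mice was 2.65 (SE 0.379, adjusted p = 0.000478, edgeR), and 2.31 without Control 5. Krt19 changed by 0.20 from HN to PEC mice (95% confidence interval -0.60 to 1.00, adjusted p = 0.693, edgeR), and -0.076 without PEC 3. PEC mice were 2.85 above Control mice (adjusted p = 0.000328, edgeR).

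Krt20 (ENSMUSG00000035775, chr11:99428403-99438150, minus strand) encodes keratin 20, known from gut epithelium and the surface cells of urothelium. Control mice had FPKM of 1.83, 1.31 and 0.12, HN mice had 30.7, 29.9 and 13.0, and PEC mice had 15.0, 23.4 and 11.8. The count in Control 5 was 20, against 292 and 208 in the other two Control mice. On FPKM HN 12 lay within the PEC range, and on counts normalised with TMM (CPM of 22.9) it lay below the PEC mice (24.7 to 48.8). The log2 fold change from Control to HN mice was 3.99 (SE 0.772, adjusted p = 0.00273, edgeR), with the widest interval of the 10 genes (2.24 to 5.73), and 3.46 without Control 5. Krt20 changed by -0.34 from HN to PEC mice (95% confidence interval -1.87 to 1.18, adjusted p = 0.721, edgeR). This was -0.66 without PEC 2 and -0.12 without PEC 3, and the gene was not called in either case. In PEC 3 the FPKM of Krt20 was 11.8 and the urothelium sum was 90.5. The part of urothelium, adipocyte and neutrophil transcripts in the PEC 3 levels of Krt18, Krt19, Krt20 and Lcn2 was not tested.

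Sox9 (ENSMUSG00000000567, chr11:112782224-112787760, plus strand) encodes a transcription factor of progenitor and regenerating epithelia. The FPKM of Sox9 was 0.19, 0.08 and 0.12 in Control mice, HN mice had 9.09, 5.91 and 7.36, and PEC mice had 2.41, 2.95 and 2.57. The groups did not overlap, and the counts behind the Control values were 66, 26 and 44. Sox9 was 5.29 higher in HN than in Control mice on the log2 scale (SE 0.34, adjusted p = 5.93e-06, edgeR). It changed by -1.28 from HN to PEC mice (95% confidence interval -1.92 to -0.65, adjusted p = 0.00635, edgeR), to 0.411 times the HN level, and it was lower in 3 of 3 PEC mice. Without PEC 3 this was -1.24 (adjusted p = 0.0191, edgeR). PEC mice were 4.01 above Control mice (adjusted p = 2.36e-05, edgeR). Whether the change of Sox9 differed from those of the other 9 genes was not tested.

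**Figure D2:**
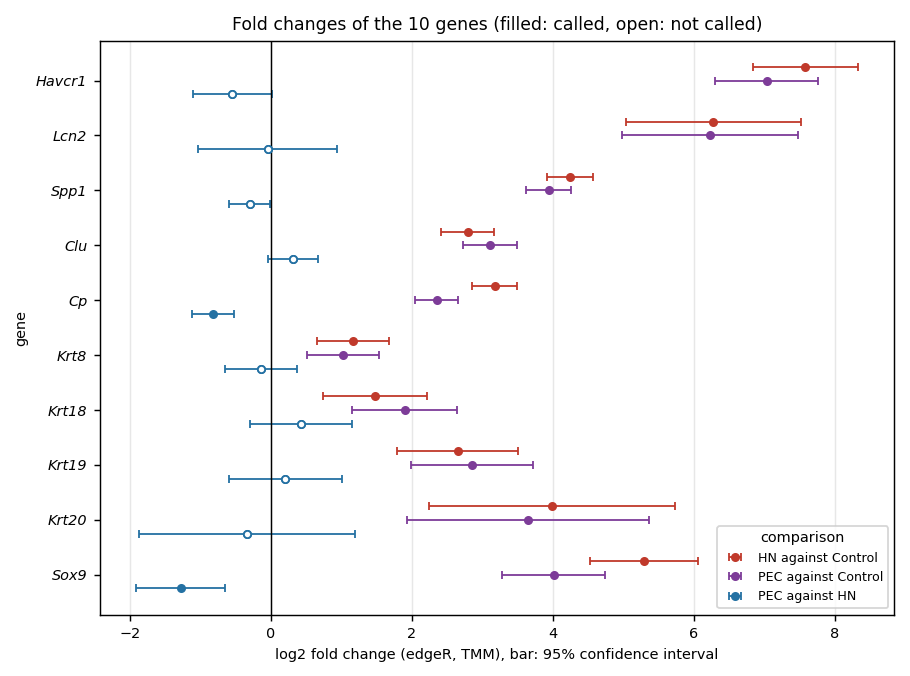
Log2 fold changes of the 10 genes in the 3 comparisons from edgeR with TMM, with 95% confidence intervals as bars, filled points for called genes and open points for genes that were not called. The points of both comparisons with Control mice lie to the right of 0, and for PEC relative to HN mice the points of Cp (-0.82) and Sox9 (-1.28) are filled.

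**Figure D3:**
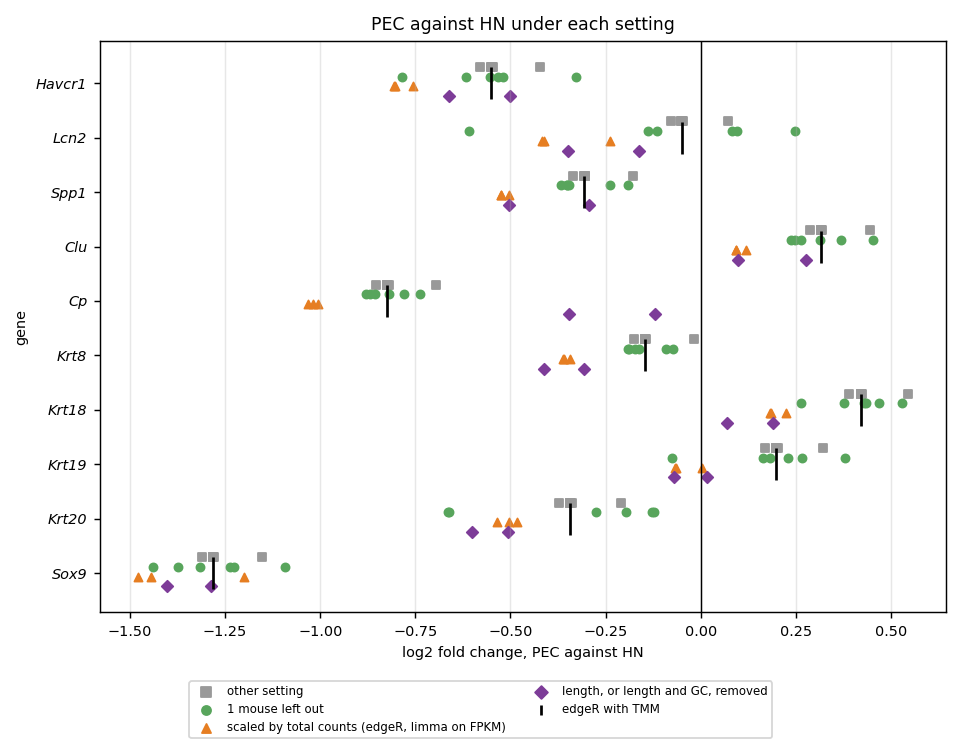
Log2 fold change of each gene in PEC relative to HN mice under each processing setting, with the black tick for edgeR with TMM. Sox9 lies between -1.48 and -1.09 in all 19 settings, Cp moves from -0.82 to -0.35 and -0.12 where gene length, or length and GC content, was removed, and Lcn2 and Krt19 have values on both sides of 0.

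Since FPKM was scaled by total counts, values in single mice are to be read against a shift of the median of all genes tested. With total counts, that median was 0.556 from Control to HN mice and -0.214 from HN to PEC mice on the log2 scale. On counts normalised with TMM, the Krt8 levels of HN and PEC mice overlapped. Those of Krt18 did not, with normalised CPM of 125.5 to 136 in HN mice and 148 to 219 in PEC mice.

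Stretches before the start of some of these genes are shown because the genes rose together in HN mice. RefSeq promoter windows (GRCm38.p6) were found for 7 of the 10 genes. The 250 bases before each RefSeq start were searched on both strands for the motifs STAT (TTCNNNGAA), AP-1 (TGANTCA) and SOX (AACAAT) and for the NF-kB consensus. Clu, Krt19 and Sox9 had no entry. Each stretch ends at or before the last base ahead of the gene in the deposited table, which shortens those of Krt18 and Lcn2. Capitals mark a SOX and then an AP-1 match in Cp and an NF-kB match in Krt18. The stretches are chr3:19956804-19957053 (plus strand) for Cp, chr15:102027966-102028179 (plus strand) for Krt18, chr5:104434861-104435110 (plus strand) for Spp1 and chr2:32387798-32387989 (minus strand) for Lcn2.
Cp: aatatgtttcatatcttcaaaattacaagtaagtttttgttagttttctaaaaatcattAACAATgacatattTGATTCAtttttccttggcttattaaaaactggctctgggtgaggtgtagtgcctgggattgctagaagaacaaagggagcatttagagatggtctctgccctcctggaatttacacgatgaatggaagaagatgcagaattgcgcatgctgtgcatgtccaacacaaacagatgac
Krt18: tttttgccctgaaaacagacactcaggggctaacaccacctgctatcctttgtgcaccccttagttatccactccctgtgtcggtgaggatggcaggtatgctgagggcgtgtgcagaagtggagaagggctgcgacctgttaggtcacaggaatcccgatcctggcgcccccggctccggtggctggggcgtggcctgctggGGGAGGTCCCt
Spp1: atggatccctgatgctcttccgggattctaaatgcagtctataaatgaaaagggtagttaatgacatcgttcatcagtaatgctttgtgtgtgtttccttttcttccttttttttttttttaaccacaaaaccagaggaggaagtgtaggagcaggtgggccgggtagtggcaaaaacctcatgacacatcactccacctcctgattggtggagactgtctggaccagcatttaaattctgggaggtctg
Lcn2: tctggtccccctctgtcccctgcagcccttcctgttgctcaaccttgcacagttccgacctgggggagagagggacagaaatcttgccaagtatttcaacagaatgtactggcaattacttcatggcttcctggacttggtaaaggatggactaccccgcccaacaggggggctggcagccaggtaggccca
Of the 11 windows of these genes, 1 held an AP-1 match, 1 a SOX match and 1 an NF-kB match, and 0 held a STAT match. By the gene coordinates of the deposited table, 4 of the 11 windows (all 3 of Havcr1 and 1 of Spp1) lie inside the gene, 4 lie partly inside (1 each of Cp, Krt8, Krt18 and Lcn2) and 3 lie before it. Among all 32851 windows of the same length, 7.02% held a STAT, 6.75% an AP-1, 9.42% a SOX and 7.25% an NF-kB match. A match describes letters in a window, and no binding was measured.

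The genes most like each marker were those with the smallest root-mean-square difference of log2 CPM over the 9 libraries, each gene centred on its mean. For Havcr1 they were Cxcl17 (0.476), Spink12 (0.556) and Il1f6 (0.648), against a median of 3.50 over all genes. For Lcn2 they were C3 (0.399), G930009F23Rik (0.594) and Timp1 (0.621). C3, a central complement protein, had mean FPKM of 2.03 in Control mice, 224 in HN mice and 205 in PEC mice. Spp1 was most like C6 (0.179), Gm47163 (0.2395) and Gbx2 (0.24), and Clu was most like Clcf1 (0.2045), Pstpip1 (0.228) and Gm34084 (0.2305). Spink12, Gm47163 and Gbx2 were listed at 0 in all Control mice, with mean FPKM of 9.63, 0.363 and 0.263 in HN mice, so their distances depend on the count added before taking logs. Cp was closest to Marcksl1 (0.123), Relb (0.162) and Osm (0.163). Krt8 was closest to Pdgfrb (0.0794), a receptor of pericytes and fibroblasts, and then to Gpr39 (0.13) and Rasl12 (0.138). Krt18 was closest to Ankrd13d (0.23), A430057M04Rik (0.235) and Dnmt3b (0.255), and Krt19 to Ccne1 (0.219), Akr1b8 (0.247) and Gm34084 (0.27). Krt20 was closest to Slco5a1 (0.57), Tmem59l (0.59) and Lrrn2 (0.591). Sox9 was closest to Rgs16 (0.317), a regulator of G protein signalling, and then to Scara3 (0.401) and Lif (0.405). Rgs16 had mean FPKM of 0.177 in Control mice, 12.5 in HN mice and 3.77 in PEC mice, and its log2 fold change from HN to PEC mice was -1.52 (adjusted p = 0.000149, edgeR).

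Other genes known from injured tubules were followed in a list of 22. From Control to HN mice, 18 were called higher and 1 lower, with a median log2 fold change of 1.71. Timp1, an inhibitor of matrix proteases, was at 5.69, Cd44, a hyaluronan and osteopontin receptor, at 4.96, and Vcam1, an adhesion molecule, at 4.64. The fibrinogen chains Fgb and Fgg were at 4.16 and 4.15, and Fgg had the highest mean FPKM of the list over all 9 mice, though not in Control mice (4.2, below Hmox1 at 91.2) or PEC mice (85.5, below Lgals3 at 98.8). The lower gene was Hmox1 (-2.11), with FPKM of 180, 25.55 and 67.9 in the Control mice and 32.8, 33.6 and 24.9 in the HN mice, so Control 4 lay within the HN range. Without Control 2 it was at -1.17, and in both limma fits and without HN 12 it was not called. In PEC relative to HN mice, 6 of the 22 genes were called lower and 1 higher, with a median of -0.551. Among all genes tested, 15.3% were called lower and 13.4% higher. Vcam1 was at -0.84 (adjusted p = 0.00223, edgeR) and called, whereas Cd44 (-0.57), Timp1 (-0.48), Fgb (-0.06) and Fgg (-0.12) were not, and the gene called higher was Krt7 (0.62). With total counts 8 were called lower and 0 higher, beside 4631 of all 21392 genes lower and 1951 higher. The Krt7 call was also lost in both limma fits and without PEC 3. With gene length removed, 6 were called lower and 2 higher, and Timp1 was among the lower ones while Vcam1 (-0.40) was not called. From Control to PEC mice 16 were called higher and 1, Hmox1 (-1.57), lower, a call that was lost when any single PEC mouse was left out. Total counts gave 17 higher and 0 lower, as did upper-quartile factors. Of all 21392 genes, these settings called 6415 and 4943 higher and 1960 and 2832 lower. Hmox1 and Krt7 were singled out after their values were seen.

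Receptors, sheddases and other partners of the 10 proteins were followed in 17 genes. From Control to HN mice 9 were called higher and 2 lower. Mmp9, a protease that cleaves osteopontin, was at 3.10, and the integrin chains Itga4, Itga9 and Itgb3 were at 2.30, 1.61 and 1.31. The lower genes were Lrp2 (-1.89), which encodes megalin, an endocytic receptor that takes up lipocalin 2, and Sox6 (-0.71), a partner of Sox9. Of the 17 partners, 8 were called lower and 2 higher from HN to PEC mice, beside 15.3% and 13.4% of all genes. Itga4 was at -1.47, Itga9 at -1.40, Mmp9 at -1.39 and Itgb3 at -0.75, and the higher genes were Lrp2 (0.69) and Slc22a17 (0.71), the latter a receptor of lipocalin 2. Itgb1, with the highest mean FPKM of the partners over all 9 mice (in Control mice Lrp2 was higher, 88.5 against 75.9), was 0.63 higher in HN than in Control mice and changed by -1.03 from HN to PEC mice. With gene length removed, an alternative applied to the lists after seeing the data, 6 partners were called lower and 3 higher from HN to PEC mice, where 12.1% of all genes were called lower and 14.2% higher. There Itgb3 (-0.54), Adam17 and Plec were no longer called, Itgb5 and Sox6 were added, Itga4 was at -0.88 and Itga9 at -1.03. With length and GC content removed, 7 were lower and 3 higher. With total counts 10 were lower and 0 higher, so the higher calls of Lrp2 (then 0.49) and Slc22a17 (0.51) depended on the scaling. It called 4631 of all 21392 genes lower and 1951 higher. From Control to HN mice, total counts gave 13 higher and 1 lower, without Sox6, beside 7708 of all 21392 genes higher and 1286 lower. From Control to PEC mice Mmp9, Itga4 and Lrp8 were called higher and Lrp2 lower. Whether the changes of the integrin chains from HN to PEC mice differed from that of Spp1 was not tested.

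Of 21 relatives of the 10 genes, 17 were tested, and from Control to HN mice 7 were called higher and 1, Krt80 (-0.61), lower. Of all genes tested, 17.7% were called higher and 14.7% lower there. The FPKM of Krt80 overlapped between Control mice (1.84 to 1.95) and HN mice (1.63 to 2.09), and it was not called with total counts (-0.050) or upper-quartile factors (-0.58). Sox8 (3.39) and Sox11 are relatives of Sox9, and Sox11 had FPKM of 0, 0.01 and 0.04 in Control mice, 0.89, 0.83 and 1.13 in HN mice and 0.44, 0.38 and 0.25 in PEC mice. Havcr2, which encodes TIM-3, had mean FPKM of 0.193 in Control mice, 2.27 in HN mice and 1.11 in PEC mice. Dspp, a relative of Spp1, had at most 0.01 FPKM in Control mice and 0.37 in HN mice, and Dmp1 was listed at 0 in all Control mice and had at most 0.11 in HN mice. Mepe and Hephl1 were listed at 0 in every mouse, and Ibsp and Timd4 were also too low to be tested. From HN to PEC mice 4 were called lower, Sox4 (-2.21), Heph (-1.65), Sox8 (-1.30) and Ptgds (-0.61), and 1, Timd2 (0.82), higher. Among all genes, 15.3% were called lower and 13.4% higher. The same 4 were called lower with gene length removed, and with length and GC content removed, whereas Ptgds was not called with upper-quartile factors or when any single PEC mouse was left out. With total counts 6 relatives were called lower and 1 higher, and the median of the list was -0.0725, against 0.126 with TMM. That scaling called 4631 of all 21392 genes lower and 1951 higher, and the median of all genes was -0.214. Sox4, a relative of Sox9, had FPKM of 5.92, 5.1 and 4.61 in the Control mice, 43.3, 40.5 and 43.1 in the HN mice, and 7.72, 8.72 and 7.2 in the PEC mice. Heph is a ferroxidase related to Cp, and Timd2, a relative of Havcr1, had the highest mean FPKM of the list over all 9 mice, though not in HN mice (24.3, below Sox4 at 42.3). From Control to PEC mice the 5 genes called higher were Havcr2, Timd2, Apod, Sox8 and Sox11. With total counts 10 were called higher, and 7 with upper-quartile factors. Of all 21392 genes, 4053 were called higher there with TMM, 6415 with total counts and 4943 with upper-quartile factors. Apod had FPKM of 0.43, 0.42 and 5.41 in the PEC mice and at most 0.19 in Control mice, and its log2 fold change of 3.64 was 1.39 without PEC 3. Those not covered by the rule for naming were singled out after their values were seen.

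**Figure D4:**
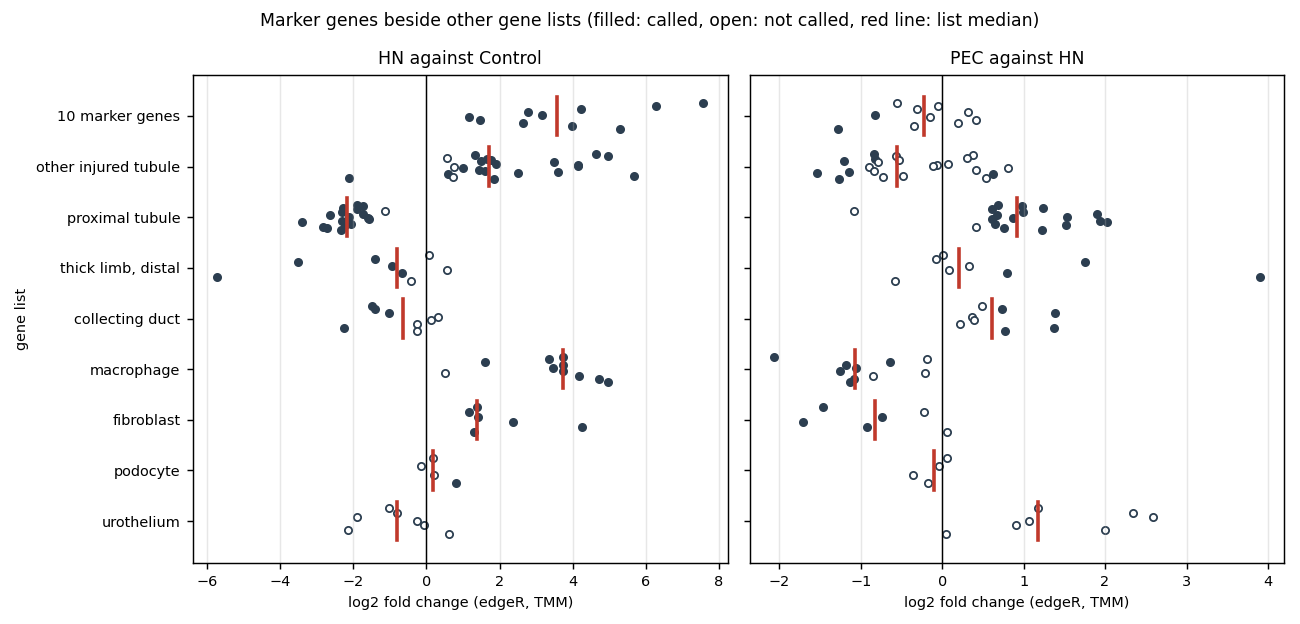
Log2 fold changes from edgeR of the genes tested in each list, from Control to HN mice and from HN to PEC mice, with filled points for called genes, open points for genes not called and a red line at the list's median. The 10 marker genes have a median of 3.58 on the left and -0.226 on the right, and the proximal tubule genes have medians of -2.18 and 0.924.

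Havcr1 is known to be induced in proximal tubule cells, whose markers moved the opposite way. Of 18 such genes, 17 were called lower in HN than in Control mice, with a median of -2.18, and the other, Slc5a12, was at -1.13 and not called. Kap, an androgen-regulated protein and the most abundant of the list, was at -3.40, the transporter Slc7a13 at -2.83, Acsm2 at -2.73, the urate transporter Slc22a12 at -2.65 and Ttc36 at -2.33. From HN to PEC mice 16 of the 18 genes were called higher, with a median of 0.924. Slc7a13 (0.42) and Slc5a12 (-1.08, mean FPKM of 25.2 and 10.3) were not called, the latter with a change in the opposite direction. Relative to Control mice 16 were called lower in PEC mice. With total counts, 10 were called higher and 1, Slc5a12, lower from HN to PEC mice, with a median of 0.723. Of all 21392 genes, 1951 were called higher and 4631 lower there. In PEC relative to Control mice 12 of the 18 were called lower with total counts, whereas 17 stayed lower in HN than in Control mice. The summed FPKM of the list was 34449 ± 7713 (SD, n = 3) in Control mice, 5724 ± 1242 (SD, n = 3) in HN mice and 17171 ± 3873 (SD, n = 3) in PEC mice. Kap made up most of it, and the other 17 genes summed to 5674 ± 134 (SD, n = 3), 1728 ± 54.1 (SD, n = 3) and 3306 ± 649.5 (SD, n = 3). Whether these changes differed from those of the 10 injury markers was not tested.

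Spp1, Lcn2 and Cp are also made by leukocytes, and macrophage genes differed between the groups. Of 10 macrophage genes, 9 were called higher from Control to HN mice, with a median of 3.73, and 7 were called lower in PEC than in HN mice, with a median of -1.07. Their summed FPKM was 53.5 to 63.7 in Control mice, 1120 to 1312 in HN mice and 430 to 601 in PEC mice, and Lyz2 was the most abundant. Ms4a7 (4.98), Lyz2 (4.73) and Fcgr1 (4.18) had the largest log2 fold changes from Control to HN mice. Of 10 neutrophil genes, 5 were tested and 2, Cxcr2 (2.59) and Csf3r (2.86), were called higher from Control to HN mice. The neutrophil genes Mpo, Elane, Camp and Ly6g had at most 0.12 FPKM in any mouse, and S100a9 was the most abundant. The list summed to 6.87, 13.15 and 4.4 FPKM in Control 2, 4 and 5, to 33.4, 18.5 and 20.95 in HN 4, 8 and 12, and to 8.84, 10.5 and 28.85 in PEC 1, 2 and 3. Of 6 fibroblast genes, 6 were called higher from Control to HN mice, with Col1a1 at 4.26. Of these, 4 were called lower from HN to PEC mice, Lum (-1.71), Pdgfra (-1.47), Col1a1 (-0.92) and Dcn (-0.74). The part of leukocytes, neutrophils included, and fibroblasts in the levels of Spp1, Lcn2 and Cp was not tested.

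**Figure D5:**
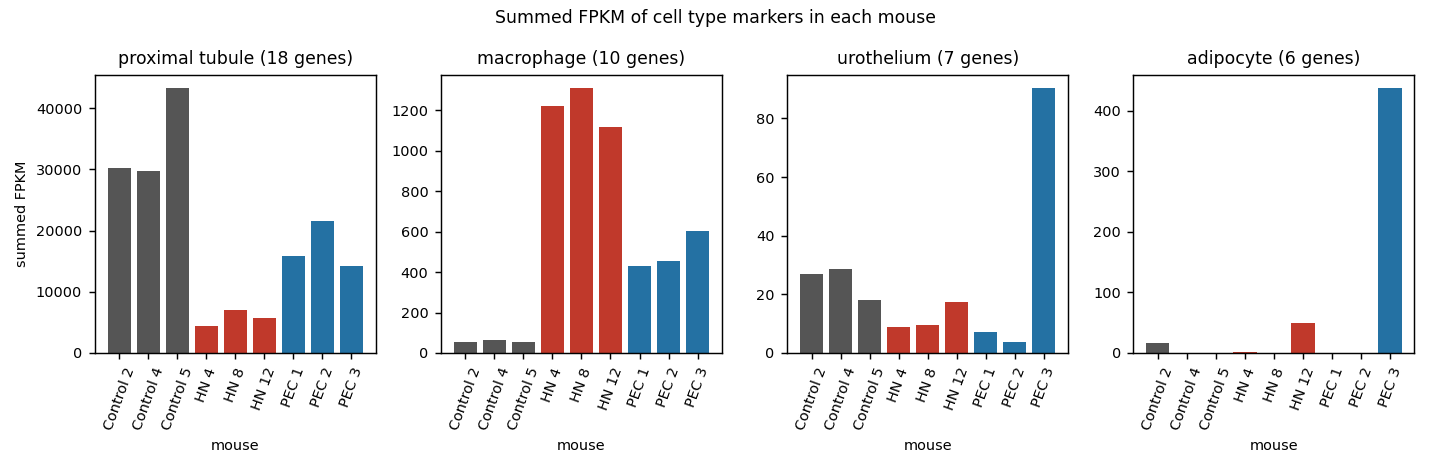
Summed FPKM of proximal tubule, macrophage, urothelium and adipocyte markers in each mouse, with bars from 0 on an axis of its own for each list. Kap carries most of the proximal tubule bars. PEC 3 stands out in the urothelium (90.5) and adipocyte (438) panels, and the macrophage bars are highest in HN mice (1120 to 1312).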

How the data were processed

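Poly(A) RNA of 9 mouse kidneys was measured, 3 in each of the Control, HN and PEC groups, which were taken from the sample labels. The authors deposited counts (whole reads per gene, not normalised) and FPKM values (counts scaled by gene length and library total) for 55385 genes. The submitters' notes name Bowtie 0.12.2 and the builds mm8 and mm9, and the counting program is not stated. The gene coordinates in the deposited table are those of GRCm38, identical to GENCODE M21 for 94.3% of the genes found in both and for 8 of the 10 markers. edgeR 4.0.16 in R 4.3.3 (filterByExpr, TMM, glmQLFit and glmQLFTest) was run on the counts in 1 fit over the 9 libraries, with Benjamini-Hochberg adjustment over 21392 genes, and standard errors were derived from the fold change and its F statistic. Totals were 57714111 to 81069646 reads, and replicates differed by more than counting error (chi-square per degree of freedom 63.2 to 215). With 3 mice against 3, the exact permutation test cannot go below p = 0.1.

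The alternatives were total counts, median-of-ratios and upper-quartile factors, DESeq2 1.42.0, limma 3.58.1 with a trend on log2(FPKM + 1) and log2(FPKM + 0.1) where the mean FPKM was 0.5 or more, no filter, only the groups compared, unadjusted p, a fold change of at least 2, removal of the dependence on gene length (splines with 5 degrees of freedom), and each mouse left out. Removal of length and GC content together, and all alternatives as applied to the other gene lists, were chosen after seeing the data. Copies were searched with blastn 2.17.0, at 90% identity or more across 20% of the transcript or more. Other values were computed in Python 3.11.15 with pandas 2.3.3 and scipy 1.17.1. The steps were tested on simulated data, in which most changed genes with low counts were missed. Of 200 genes changed 3-fold, 96 were recovered, and 2 unchanged genes were called. Among the changed genes with a mean count above 1000, 66 of 69 were recovered. The genes named are the 10 markers, up to 5 genes of each other list with the largest change from Control to HN mice, its gene with the highest mean FPKM over all mice, genes at 0, relatives and partners where the marker is described, and the 3 genes most like each marker. The members and lists were chosen with earlier results of these data known.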

Additional observations from a re-analysis of the deposited data

How the results depend on the processing

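From Control to HN mice, the 10 genes kept their direction and call under all 18 alternatives (180 of 180 values). From Control to PEC mice 179 of 180 did, Krt8 being the exception (0.54 with length and GC content removed). From HN to PEC mice 165 of 180 values kept direction and side of the threshold. Sox9 was called lower in all 19 settings (-1.48 to -1.09). With limma and a pseudocount of 1 it was 2.89 from Control to HN mice (5.29 with edgeR) and 1.69 from Control to PEC mice (4.01), and called in both. Cp was called in 16 of 19, and 1 gene rather than 2 was called lower at a fold change of at least 2, with length removed (Cp at -0.35), and with length and GC content removed (-0.12). Havcr1 was called with total counts (-0.755), in both limma fits (-0.80 and -0.81) and without PEC 2 (-0.78). The limma fits used FPKM, which is also scaled by total counts. The median of all genes was -0.214 with total counts and -0.19 and -0.247 in the limma fits. Values that changed sign, none of them called, were those of Lcn2 with upper-quartile factors (0.072), without HN 4 (0.095), without PEC 1 (0.081) and without PEC 2 (0.25), with a range of -0.61 to 0.25 over mice left out. Krt19 did so in the limma fits (-0.066 with a pseudocount of 1, -0.069 with 0.1), with length and GC content removed (-0.070) and without PEC 3 (-0.076), with a range of -0.076 to 0.38 over mice left out. The cause was not tested.

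Counts of all genes called depended on scaling. With total counts, 7708 were higher and 1286 lower from Control to HN mice, and 6415 higher and 1960 lower from Control to PEC mice. From HN to PEC mice 2875 were higher and 3266 lower with TMM, 1951 and 4631 with total counts, 3582 and 2583 with upper-quartile factors, and 3030 and 2595 with length removed, so which direction had more calls depended on the setting. The limma fits tested 15508 genes, against 21392 in the main edgeR fit. A pseudocount of 1 gave 4649 higher and 1024 lower from Control to HN mice, and 1356 and 3390 from HN to PEC mice. From Control to PEC mice it gave 3581 and 1485. With a pseudocount of 0.1 the counts were 5906 higher and 1191 lower, 1683 and 4249, and 4685 and 1919 in the same comparisons. At a fold change of at least 2, edgeR called 2939 higher and 1902 lower from Control to HN mice. It called 1771 higher and 1823 lower from HN to PEC mice, and 3013 higher and 2089 lower from Control to PEC mice. The share of higher calls from Control to HN mice was 54.5% with TMM, 85.7% with total counts and 40.3% with length removed. In the same comparisons the median of all genes lay at 0.346, -0.19 and 0.192 with the first limma fit, and with length removed at -0.214, 0.0475 and -0.112. Upper-quartile factors moved it to 0.11 from HN to PEC mice and 0.203 from Control to PEC mice. No paired analysis was possible because no label pairs mice of different groups. With 3 mice a group, wide intervals such as those of Lcn2 and Krt20 do not show that PEC and HN mice were alike.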

Other observations

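Of 8 thick limb and distal genes, 5 were called lower in HN than in Control mice, beside 14.7% of all genes. They were the calcium-binding protein Pvalb (-5.73), the growth factor Egf (-3.52), the cotransporters Slc12a1 (-1.40) and Slc12a3 (-0.67), and the channel Kcnj1 (-0.94). From HN to PEC mice Pvalb, Egf and Slc12a3 were called higher, beside 13.4% of all genes. Umod, the most abundant, was at 0.07 from Control to HN mice, while its mean FPKM went from 878 to 1333. With total counts 3 genes were called lower from Control to HN mice (Pvalb, Egf and Slc12a1) and 2 higher (Umod at 0.63 and Cldn16 at 1.11). That scaling called 7708 of all 21392 genes higher and 1286 lower, and the median of all genes was 0.556, near the value of Umod. Of 8 collecting duct genes, Slc4a1 (-2.26), Aqp2 (-1.48), Aqp3 (-1.40) and Fxyd4 (-1.01) were called lower in HN mice, and Slc4a1, Aqp3, Fxyd4 and Foxi1 were called higher from HN to PEC mice. With total counts Slc4a1, Aqp2 and Aqp3 were called lower and Hsd11b2 and Scnn1g higher from Control to HN mice, against the same shift of all genes. With TMM, Hsd11b2 (0.31) and Scnn1g (0.13) were not called. From HN to PEC mice Slc4a1 and Fxyd4 were higher with total counts, where the median of all genes was -0.214. The collecting duct genes had a summed FPKM of 419, 465 and 242 in Control 2, 4 and 5, and Aqp2 (272, 309 and 121) made up most of the difference. Control 5 was the lowest Control mouse for 6 of the 8 genes, Aqp3 (47.7, 48.3 and 31.0) among them, though not for Fxyd4 (11.1, 13.7 and 11.15) or Slc4a1 (8.26, 8.07 and 8.1). Of 4 podocyte genes, Synpo (0.82) was called higher in HN mice, though not with gene length removed, beside 17.7% of all genes. With total counts 3 of the 4 were called higher, beside 7708 of 21392 genes and a median of all genes of 0.556. Of 3 mesothelium genes tested from Control to HN mice, Gpm6a (-1.64) was called lower. Msln (0.36) and Upk3b (-1.14) were not called, and Lrrn4 was too low to be tested. Gpm6a made up 95.9% of the list's summed FPKM in Control mice, and whether its level came from mesothelium was not tested. Kcnj1, Slc12a3 and Foxi1 were named after their values were seen.

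The integrin chain Itgav, a partner of osteopontin, had FPKM of 12.02, 1.47 and 0.68 in PEC 1, 2 and 3, a wider spread than in Control mice (4.31 to 5.65) or HN mice (11.2 to 16.7), and was singled out for it. Among urothelium genes, Psca had 55.5 FPKM in PEC 3 against 3.32 and 2.15 in PEC 1 and PEC 2. The adipocyte gene Cfd had 320 FPKM in PEC 3 against 0 and 0.49.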
